A study of Mus musculus with 12 samples.

Results

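The 10 genes described here, Gfap, Vim, Nes, Cd44, Tnc, Lgals3, Anxa2, S100a6, S100a10 and Emp1, encode cytoskeletal, adhesion and membrane proteins that are known from reactive glia. They were taken by their symbols from a table of 31208 genes, and each symbol had 1 row. Of these rows 22036 carry Ensembl identifiers, as all 10 genes do, and 8652 are labeled as new genes. Shares over all genes include the new genes that passed the filter. The table holds nanopore reads of full-length cDNA from brain tissue of 8-week-old C57BL/6 mice in 3 groups of 4. These were sham mice, mice with ischemia and vehicle, and mice with ischemia and lactate. Sham mice had no cerebral ischemia and no treatment is named for them. Vehicle mice had ischemia for 6 h after preconditioning with vehicle, which the study's methods give as saline, and lactate mice had ischemia for 6 h after preconditioning with lactate, for which the methods name D-lactate. Both were injected into a cerebral ventricle on the day before a filament closed the middle cerebral artery, so the vehicle and lactate mice shared injection and occlusion. Since no injection is named for the sham mice, injection and ischemia cannot be told apart in the comparisons with sham. The sources do not say whether brains were pooled or which part of the brain was taken, so each replicate was treated as 1 mouse, and P values measure only the spread between these samples, which may be technical. In RNA of a whole tissue, more cells of a type and more RNA per cell cannot be told apart.

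Astrocytes answer injury of the brain with reactive gliosis, in which they build up a network of intermediate filaments, enlarge their processes and change their contacts with the matrix around them. Gfap, Vim and Nes are the filament proteins of that network. CD44 is a receptor for the matrix sugar hyaluronan, tenascin-C is a matrix protein, and galectin-3 and the annexin and S100 proteins act at membranes in many cell types, among them microglia, macrophages, endothelial cells and fibroblasts. None of the 10 genes other than Gfap is therefore a measure of astrocytes alone.

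When compared to the sham mice, 4 of the 10 genes were called higher in the vehicle mice, where 1.29% of the 17019 genes tested were, and 8 of the 10 in the lactate mice, where 7.88% of 17262 were. Cd44, Lgals3 and Emp1 passed a filter on low counts only with the help of the ischemic mice. Of the 7 genes that passed it in the sham mice alone, 2 were called higher in vehicle mice and 5 in lactate mice. Gfap, Vim, Cd44 and Emp1 rose in both comparisons, which share their sham mice, and Lgals3, Anxa2, S100a6 and Nes passed in the lactate mice and not in the vehicle mice. No gene of the 10 was called lower, and with all mice and genes Tnc and S100a10 were called in no comparison. Between the lactate and the vehicle mice none of the 10 passed the test, although the mean level was higher in the lactate mice for 9 of them. A gene was called at a Benjamini-Hochberg adjusted P value under 0.05 over all genes tested, with a fold change of at least 1.5, in edgeR's quasi-likelihood test of the read counts.

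The depth was 6815920 to 10677224 reads assigned to genes per mouse, and 3 reads, the limit that a count of 0 allows, amount to 0.281 to 0.440 CPM (reads of a gene scaled to a library of 1000000 reads). These limits cover counting error only, since the reads come from amplified cDNA without molecular identifiers. Vehicle mouse 1 stood apart from the other 11 on the second principal component, at 68.9 against -26.1 to 11.4. Vehicle mouse 2 held most of the choroid plexus RNA of the series, with 14031 reads of Ttr, the transthyretin of that tissue, and a summed level of 1833 CPM over 4 choroid plexus markers. Without vehicle mouse 1 the vehicle and sham mice differed in 5 of the 10 genes, with Anxa2 added, and without vehicle mouse 2 in 3, with Emp1 lost, while the calls over all genes went from 250 to 472 and 206. With either mouse left out, the count between lactate and vehicle mice was 0, as with all mice. All 10 genes passed the filter on low counts (1 CPM in at least 4 of 8 mice) in each comparison, but Cd44, Lgals3 and Emp1, with 0, 1 and 3 sham mice at 1 CPM, passed it against the sham mice only with the help of the ischemic mice. Genes on the opposite strand overlap Gfap (Gm26668), Cd44 (Gm23731), Tnc (8030451A03Rik) and Anxa2 (Gm16144), and since the sources do not say whether counting used the strand, reads of such pairs may not have been told apart.

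**Figure D1:**
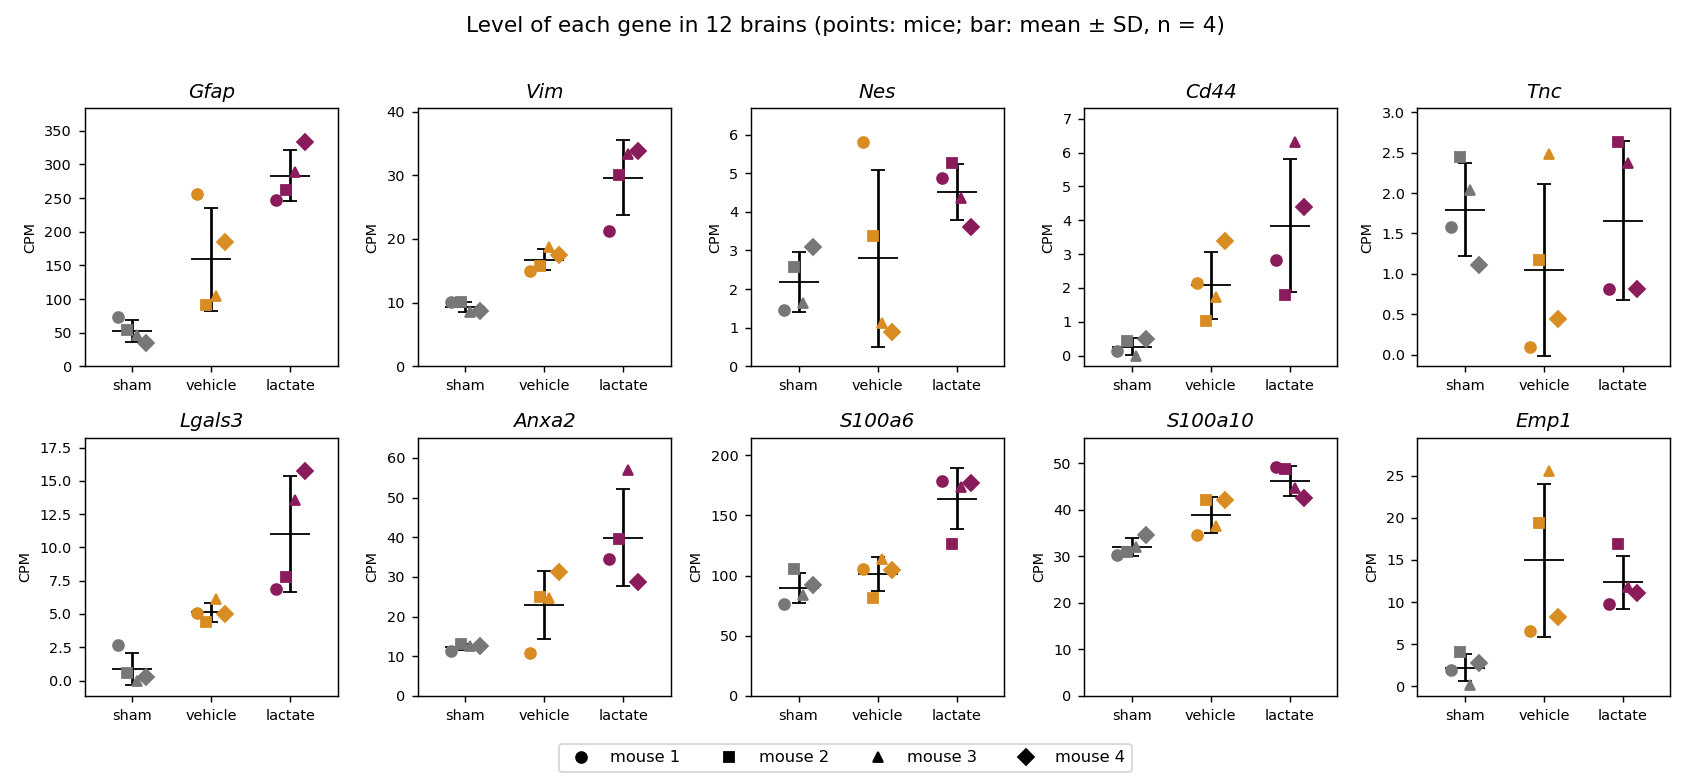
Level of each of the 10 genes in CPM (linear axes that differ between genes) in sham, vehicle and lactate mice. Points are single mice, the marker shape gives the mouse number within its group, and the bars are mean and SD of 4 mice. Vim, Lgals3, S100a6 and S100a10 are higher in every lactate mouse than in any vehicle mouse, whereas the vehicle mice span most of the range of Nes and Tnc.

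Gfap, the filament protein that defines reactive astrocytes, lies on the minus strand of chromosome 11 (chr11:102887336-102900912, GRCm38, ENSMUSG00000020932). It was measured at 73.7, 54.5, 46.7 and 34.5 CPM in sham mice 1 to 4, at 255.5, 91.7, 104.8 and 184.3 CPM in vehicle mice 1 to 4 and at 247.7, 262.3, 288.8 and 333.6 CPM in lactate mice 1 to 4. All 8 ischemic mice lay above all 4 sham mice, and vehicle mouse 1 alone among the vehicle mice reached the range of the lactate mice. The mean rose from 52.4 ± 16.4 CPM in sham to 159 ± 76.2 in vehicle and 283 ± 37.7 in lactate mice (SD, n = 4 each), 3.04 and 5.41 times the sham mean. On the log2 scale the fitted rise was 1.64 ± 0.31 (SE) in the vehicle mice (edgeR, adjusted P = 0.0201) and 2.47 ± 0.18 in the lactate mice (edgeR, adjusted P = 1.99e-06). A larger log2 fold change was fitted for 1.20% of the genes tested in the first comparison and 0.834% in the second. The adjusted P of the vehicle mice passed 0.05 without sham mouse 2 (0.0695), sham mouse 3 (0.0893) or sham mouse 4 (0.0754), with a log2 rise of 1.49 to 1.68.

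The RefSeq promoter of Gfap, taken as 250 bases before to 50 after the start, holds the letters TTCNNNGAA of the STAT family, the transcription factors that act downstream of cytokine receptors. The match spans bases -2 to 6 from that start (base 0 is the start), within an exon of 1 GENCODE transcript and an intron of another. It is shown in capitals with 10 bases on either side, on the gene's own strand, at chr11:102897184-102897212.
Gfap: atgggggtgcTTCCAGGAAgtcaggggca
TTCNNNGAA occurs in 8.30% of all 32851 promoters in that table, on either strand, and among the 9 genes of the 10 with a promoter there in Gfap and Emp1. S100a10 has none in that table. A match of letters is a description and was not tested as a binding site.

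Vim encodes vimentin, which forms filaments together with GFAP, on the plus strand at chr2:13573927-13582826 (ENSMUSG00000026728). Its levels were 10.02, 10.03, 8.56 and 8.63 CPM in the sham mice, 15.0, 15.8, 18.7 and 17.5 CPM in the vehicle mice and 21.2, 30.1, 33.4 and 33.9 CPM in the lactate mice. The 3 groups did not overlap, and the lactate mice were the most spread. The means were 9.31 ± 0.828, 16.7 ± 1.66 and 29.6 ± 5.85 CPM, 1.80 and 3.18 times sham. The fitted log2 rise was 0.88 ± 0.17 in vehicle mice (edgeR, adjusted P = 0.0253) and 1.70 ± 0.17 in lactate mice (edgeR, adjusted P = 4.63e-05). The vehicle call was lost without any 1 of the 4 sham mice and without vehicle mouse 3 or 4, where the edgeR adjusted P lay between 0.0505 and 0.107, while the log2 rise stayed between 0.82 and 0.94. In the exact permutation test on log2(CPM + 1) of each mouse, both comparisons gave P = 0.0286, the smallest that 70 splits of 8 mice can give, two-sided.

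Nes encodes nestin, a filament protein of neural progenitors that reactive astrocytes can take up again (chr3:87971078-87980451, plus strand, ENSMUSG00000004891). It was at 1.45, 2.56, 1.63 and 3.08 CPM in sham mice, at 5.81, 3.37, 1.12 and 0.880 CPM in vehicle mice and at 4.87, 5.27, 4.35 and 3.59 CPM in lactate mice. Vehicle mice 3 and 4 lay below every sham mouse and vehicle mouse 1 above every other mouse of the study, so the vehicle group spanned the whole range. All 4 lactate mice lay above all 4 sham mice. The log2 fold change was 0.42 ± 0.52 in vehicle mice (edgeR, adjusted P = 0.781) and -0.26 without vehicle mouse 1. In lactate mice Nes rose by 1.06 ± 0.29 (edgeR, adjusted P = 0.0301), and this call was lost without sham mouse 1 or 3 or lactate mouse 1, 2 or 3 (adjusted P of 0.0567 to 0.0910).

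Among the 3 filament genes, which share an intermediate filament domain in the deposited annotation, the vehicle mice differed in order. Vehicle mouse 1 had the highest Gfap and Nes and the lowest Vim of its group. Vehicle mouse 3 had the highest Vim and the second lowest Gfap and Nes.

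Cd44, the hyaluronan receptor, lies on the minus strand at chr2:102811141-102901665 (ENSMUSG00000005087). The sham mice had 1, 4, 0 and 4 reads, which is 0.132, 0.446, 0 and 0.493 CPM, and the 0 reads of sham mouse 3 allow a level of up to 0.407 CPM. Levels were 2.15, 1.036, 1.74 and 3.37 CPM in vehicle mice (8 to 23 reads) and 2.84, 1.80, 6.33 and 4.41 CPM in lactate mice (15 to 48 reads). Every ischemic mouse lay above every sham mouse, and vehicle and lactate mice overlapped. The means were 0.268 ± 0.240, 2.08 ± 0.981 and 3.84 ± 1.97 CPM, 7.76 and 14.4 times sham, with the sham mean under the level of 3 reads in any mouse. The fitted log2 rise was 2.85 ± 0.60 in vehicle mice (edgeR, adjusted P = 0.0335) and 3.73 ± 0.58 in lactate mice (edgeR, adjusted P = 0.00157). The vehicle call was lost without any 1 of the sham mice, and without vehicle mouse 3 or 4, with edgeR adjusted P values of 0.0658 to 0.134 and a log2 rise of 2.48 to 3.27.

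Lgals3 encodes galectin-3, a lectin that binds sugars on the cell surface and in the matrix and is abundant in activated microglia and macrophages (chr14:47367751-47386160, plus strand, ENSMUSG00000050335). The sham mice had 20, 5, 0 and 2 reads, or 2.64, 0.557, 0 and 0.247 CPM. The vehicle mice were close to each other at 5.06, 4.40, 6.10 and 4.99 CPM, and the lactate mice had 6.90, 7.78, 13.6 and 15.8 CPM. The 3 groups did not overlap. The means of 0.860 ± 1.21, 5.14 ± 0.706 and 11.01 ± 4.34 CPM stood at 5.97 and 12.8 times sham. The log2 fold change was 2.62 ± 0.63 in vehicle mice and missed the threshold (edgeR, adjusted P = 0.0660), whereas in lactate mice Lgals3 rose by 3.71 ± 0.59 (edgeR, adjusted P = 0.00166). Without sham mouse 1, which held 20 of the 27 sham reads, the vehicle log2 fold change was 4.13 and passed (edgeR, adjusted P = 0.00293), and that of the lactate mice was 5.20, so the size in both comparisons rests on that mouse. DESeq2, all genes without the filter on low counts, and a fit of all 12 mice also called Lgals3 in the vehicle mice.

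Tnc encodes tenascin-C, a matrix protein that modulates cell attachment (chr4:63959785-64047015, minus strand, ENSMUSG00000028364). It had 12, 22, 15 and 9 reads in sham mice, 1, 9, 20 and 3 in vehicle mice and 6, 22, 18 and 7 in lactate mice. In CPM these were 1.58, 2.45, 2.04 and 1.11 in sham, 0.0937, 1.17, 2.49 and 0.440 in vehicle and 0.811, 2.63, 2.37 and 0.812 in lactate mice. The groups overlapped fully. The log2 fold change was -0.78 ± 0.62 in vehicle mice (edgeR, adjusted P = 0.635, 95% interval -2.12 to 0.57) and -0.092 ± 0.43 in lactate mice (edgeR, adjusted P = 0.920, interval -1.02 to 0.83). The value in vehicle mice was -1.69 without vehicle mouse 3 and -0.34 without vehicle mouse 1. The sign in lactate mice turned to 0.11 without sham mouse 2, 0.12 without lactate mouse 1 and 0.14 without lactate mouse 4.

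**Figure D2:**
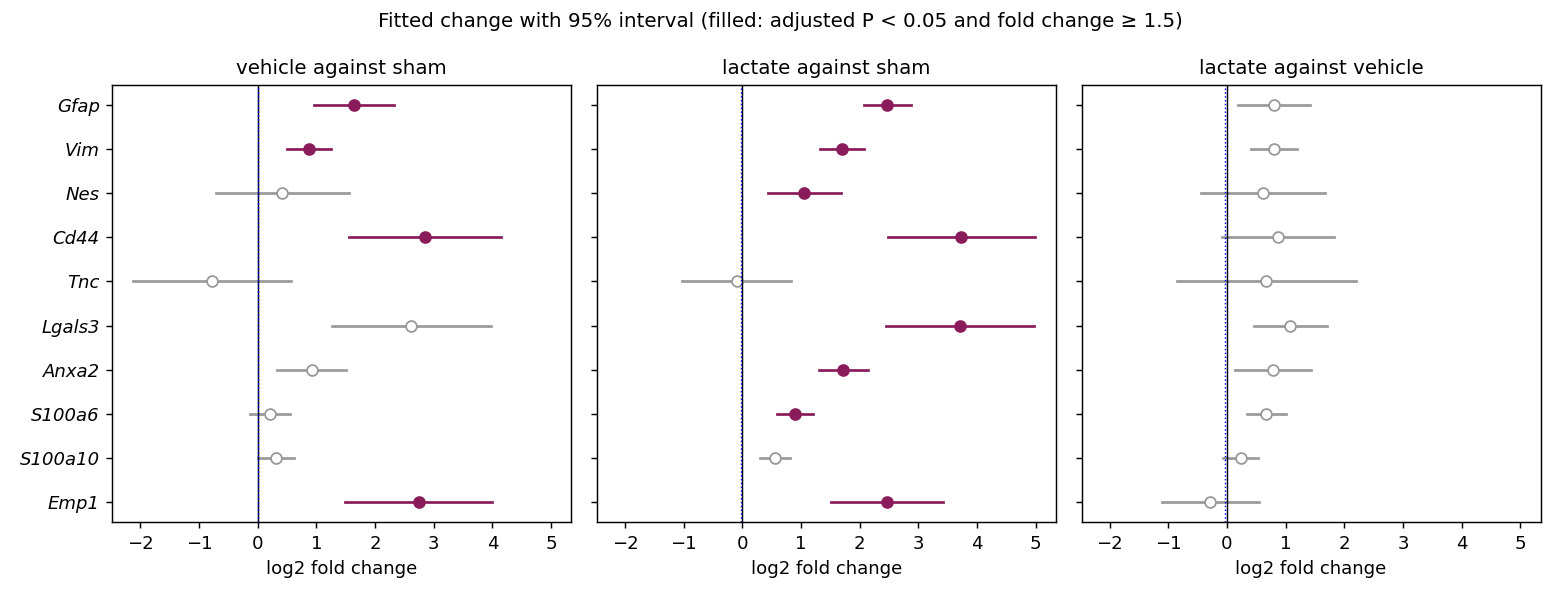
Fitted log2 fold change of each gene (points) with its 95% interval (lines) in the 3 comparisons, each from a fit of 8 mice. Filled points passed an adjusted P under 0.05 with a fold change of at least 1.5, and the dotted line is the median of all genes tested. The filled points number 4, 8 and 0, and the interval of Tnc includes 0 in each comparison.

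Anxa2 and S100a10 encode the 2 chains of one complex, annexin A2 with its partner p11, which binds membranes and actin. Anxa2 lies at chr9:69453620-69491795 on the plus strand (ENSMUSG00000032231) and was at 11.2, 13.04, 12.5 and 12.5 CPM in sham mice, 10.8, 24.9, 24.8 and 31.3 CPM in vehicle mice and 34.5, 39.6, 56.8 and 28.8 CPM in lactate mice. Vehicle mouse 1 lay below every sham mouse, and the other 3 vehicle mice lay above every sham mouse. The fitted log2 fold change in vehicle mice was 0.92 ± 0.27 (edgeR, adjusted P = 0.146) with all mice and 1.16 without vehicle mouse 1 (edgeR, adjusted P = 0.00248), and DESeq2 called it with all mice (adjusted P = 0.0462). In lactate mice Anxa2 rose from a mean of 12.3 ± 0.775 to 39.9 ± 12.1 CPM (SD, n = 4), a log2 change of 1.72 ± 0.20 (edgeR, adjusted P = 0.000139).

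S100a10 (chr3:93555080-93564643, plus strand, ENSMUSG00000041959) moved over a smaller range. Its levels were 30.3, 31.0, 32.1 and 34.5 CPM in sham mice, 34.6, 42.0, 36.5 and 42.1 CPM in vehicle mice and 49.1, 48.6, 44.7 and 42.4 CPM in lactate mice. The 3 groups did not overlap, although sham mouse 4 (34.53 CPM) and vehicle mouse 1 (34.56 CPM) almost met. The log2 fold change was 0.31 ± 0.14 in vehicle mice (edgeR, adjusted P = 0.359) and 0.56 ± 0.12 in lactate mice, where the adjusted P passed (edgeR, 0.00836) and the fold change stayed under 1.5. It reached 1.5, and S100a10 was called, without sham mouse 4 (log2 0.595), without lactate mouse 4 (0.599) and among Ensembl genes only (0.604). Its annotated coding transcripts are 477 to 685 bp long, and those of S100a6 464 to 731 bp, near the 500 bp below which the authors discarded reads, and whether this removed reads of these genes was not tested.

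S100a6 encodes calcyclin, a calcium-binding protein that belongs to the same S100 domain family as S100a10 (chr3:90612882-90624181, plus strand, ENSMUSG00000001025). It was at 76.0, 105.3, 84.2 and 92.1 CPM in sham mice, at 105.4, 80.9, 114.0 and 104.9 CPM in vehicle mice and at 178.9, 126.1, 173.4 and 177.2 CPM in lactate mice. Sham and vehicle mice overlapped, and every lactate mouse lay above both groups. The log2 fold change was 0.21 ± 0.16 in vehicle mice (edgeR, adjusted P = 0.600, 95% interval -0.13 to 0.55). In lactate mice S100a6 rose by 0.90 ± 0.14 (edgeR, adjusted P = 0.00171), from 89.4 ± 12.5 to 163.9 ± 25.3 CPM.

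Emp1 encodes epithelial membrane protein 1, a small protein of the plasma membrane and of cell contacts (chr6:135362545-135383173, plus strand, ENSMUSG00000030208). The sham mice had 15, 36, 1 and 22 reads, or 1.98, 4.01, 0.136 and 2.71 CPM. Levels were 6.56, 19.4, 25.5 and 8.22 CPM in vehicle mice and 9.74, 16.9, 11.7 and 11.02 CPM in lactate mice. Every ischemic mouse lay above every sham mouse, and the vehicle mice enclosed the lactate mice. Means were 2.21 ± 1.62, 14.9 ± 9.08 and 12.3 ± 3.14 CPM, 6.76 and 5.59 times sham. The log2 rise was 2.74 ± 0.58 in vehicle mice (edgeR, adjusted P = 0.0350) and 2.46 ± 0.44 in lactate mice (edgeR, adjusted P = 0.00389). The vehicle call was lost without any 1 of the sham mice, or without vehicle mouse 2 or 3 (edgeR, adjusted P of 0.0574 to 0.128), with a log2 rise of 2.36 to 3.23.

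Promoters of Anxa2 and Emp1 were the only ones among the 9 genes with the letters TGANTCA of AP-1, the FOS and JUN dimer that stress signals induce, which 7.81% of all promoters in the table hold. The matches are shown in capitals on the gene's own strand with 10 bases on either side. They span bases -95 to -89 from the start of Anxa2 (chr9:69453578-69453604), bases -145 to -139 from that of Emp1 (chr6:135362776-135362802) and bases -25 to -19 from that of Emp1 (chr6:135362896-135362922).
Anxa2 AP-1: ccaagttggaTGAGTCAcccagcaggg
Emp1 AP-1, far: tctgtgtgtcTGAGTCAgagggagcta
Emp1 AP-1, near: aaatccagacTGATTCAtagaaactcc
Emp1 also holds TTCNNNGAA at bases -120 to -112 and -22 to -14 (chr6:135362801-135362829 and chr6:135362899-135362927), the second overlapping the near AP-1 match.
Emp1 STAT, far: tacaacagggTTCTTTGAAttgatggctc
Emp1 STAT, near: tccagactgaTTCATAGAAactcctttaa
The Anxa2 window lies before the annotated gene, the far Emp1 windows in an intron of 1 transcript and the near ones in an exon of 1 transcript. None of the 9 genes holds GGAATG, the letters of the TEAD factors of the Hippo pathway, on either strand of this window, against 14.7% of all promoters. The TATA box letters TATAAA occur in Anxa2, Tnc and Vim and in 13.6% of all promoters, and that of Vim, at bases -32 to -27 and in an exon of 2 transcripts, is at chr2:13574269-13574294.
Vim TATA: ctaacagtgtTATAAAagcagcgccc

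Against the sham mice, the count of genes called higher was 4 of 10 in vehicle mice and 8 of 10 in lactate mice, beside the 1.29% and 7.88% of all genes tested. Called lower were 0.182% and 2.52% of all genes, and none of the 10. At an unadjusted P under 0.05 with a fold change of at least 1.5, 6 of the 10 were higher in vehicle mice (6.5% of all genes) and 8 in lactate mice (11.9% of all genes). Cd44, Lgals3 and Emp1 needed the ischemic mice to pass the filter, so their share of these counts supports nothing. Over the 7 genes that reached 1 CPM in all 4 sham mice, a choice made after seeing the data, 2 were called higher in vehicle mice and 5 in lactate mice. The median log2 fold change of these 7 was 0.42 in vehicle mice, where that of all genes was 0.0031, and 1.06 in lactate mice, where that of all genes was -0.028. Groups did not overlap, with the ischemic mice higher, for 6 of the 10 genes and 3 of the 7 in vehicle mice (4.14% of all genes), and for 9 of the 10 and 6 of the 7 in lactate mice (10.4% of all genes). The shares and medians of all genes rest on the filter of 4 of the 8 mice and were not computed under the stricter rule of the 7. The count in vehicle mice was the less stable of the pair. It was 0 without sham mouse 2, 3 or 4, 2 (Gfap and Lgals3) without sham mouse 1, 1 (Gfap) without vehicle mouse 3 and 2 (Gfap and Emp1) without vehicle mouse 4, while the count in lactate mice stayed between 7 and 9. Over all genes the 250 calls in vehicle mice became 112 to 125 without 1 sham mouse, 160 without vehicle mouse 3 and 266 without vehicle mouse 4. The 1796 calls in lactate mice became 1235 to 1952 with 1 mouse left out.

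The question of what the added lactate did on top of ischemia is addressed by the lactate and vehicle mice alone. By edgeR none of the 10 genes was called (0% of the 17419 genes tested were called higher and 0.00574% in either direction), 5 had an unadjusted P under 0.05 with a fold change of at least 1.5 (3.76% of all genes, higher), and DESeq2 called 2 higher (0.325% of the 15375 genes with an adjusted P). The 4 genes whose groups did not overlap, with lactate mice higher, were Vim, Lgals3, S100a6 and S100a10, where 2.99% of all genes behaved so. The median log2 fold change was 0.73 for the 10 genes and -0.029 for all genes.

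Vim had the smallest P value of the 10 genes here, with a log2 fold change of 0.81 ± 0.18 (95% interval 0.41 to 1.20; edgeR, unadjusted P = 0.000787, adjusted P = 0.371; DESeq2, adjusted P = 0.0150). S100a6 was higher by 0.67 ± 0.15 (0.34 to 1.01; edgeR, adjusted P = 0.385; DESeq2, adjusted P = 0.0248). The 2 genes DESeq2 called were these. Lgals3 differed by 1.08 ± 0.28 (0.46 to 1.70; edgeR, adjusted P = 0.460), Gfap by 0.80 ± 0.28 (0.19 to 1.41; edgeR, adjusted P = 0.496) and Anxa2 by 0.79 ± 0.30 (0.14 to 1.43; edgeR, adjusted P = 0.519). For Gfap and Anxa2 the overlap with the lactate mice came from 1 vehicle mouse each, mouse 1 for Gfap and mouse 4 for Anxa2. The exact permutation test gave two-sided P = 0.0286, the smallest possible with 4 mice a group, for Vim, Lgals3, S100a6 and S100a10, and P = 0.0571 for Gfap and Anxa2.

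The intervals of the remaining genes included 0. The log2 fold changes were 0.87 for Cd44 (95% interval -0.083 to 1.82), 0.62 for Nes (-0.44 to 1.67), 0.67 for Tnc (-0.85 to 2.19) and 0.23 for S100a10 (-0.068 to 0.54). Emp1 was the single gene with a lower mean in the lactate mice, at -0.28 (-1.11 to 0.55), which became 0.091 without vehicle mouse 3. Without vehicle mouse 1 the value of Nes was 1.30 and that of Tnc 0.24, and without vehicle mouse 3 that of Tnc was 1.57. The edgeR adjusted P of these 5 genes lay between 0.591 and 0.857, and their intervals do not show that the groups were alike.

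**Figure D3:**
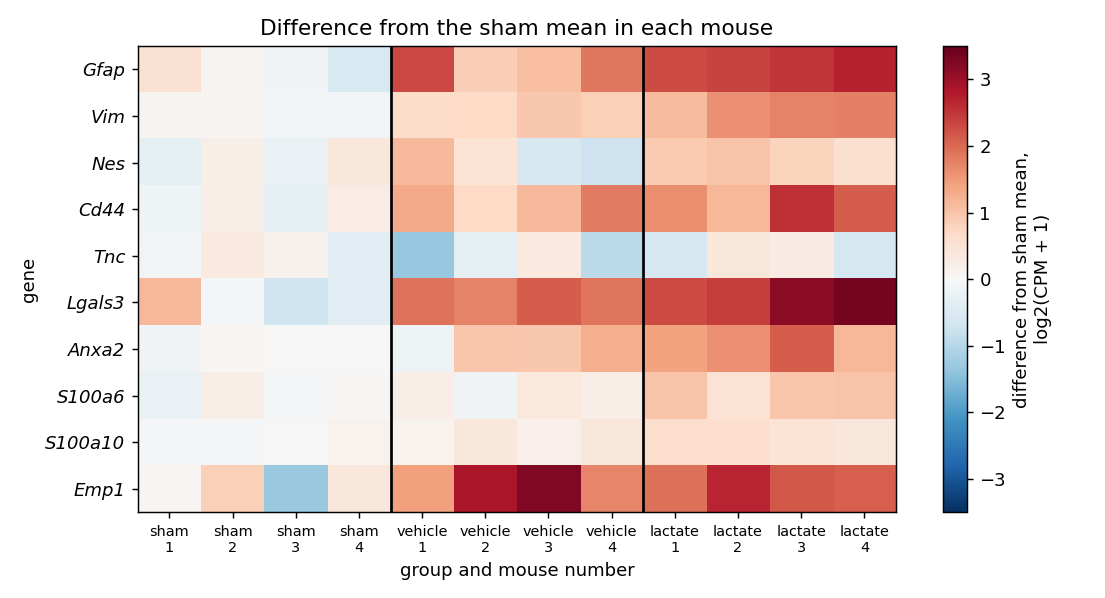
Difference of log2(CPM + 1) from the mean of the sham mice, for each gene (rows) in each of the 12 mice (columns, by group and mouse number). Red is higher than the sham mean. Vehicle mouse 1 is red for Gfap and Nes and pale or blue for Anxa2, S100a10 and Tnc, and the lactate columns are red in 9 of the 10 rows.

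The 10 genes did not move as a block from mouse to mouse. After the group means were subtracted, Pearson's r of log2(CPM + 1) over the 12 mice had a median of 0.0127 over the 45 pairs of genes, with 23 above 0, 11 below -0.3 and none above 0.7. These pairs share libraries and depth and are given as a description. The highest were 0.68 for Cd44 with S100a6 and 0.64 for Vim with Lgals3, and Anxa2 with its partner S100a10 reached 0.55. Gfap was on the opposite side of S100a10 (r = -0.59) and Emp1 (r = -0.51), and Nes of Anxa2 (r = -0.59). Vehicle mouse 1 had the lowest level of its group for 5 of the 10 genes and the highest for Gfap and Nes, vehicle mouse 3 the highest for 5, and lactate mouse 1 the lowest for 5.

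Relatives and partners of the 10 genes were read from 9 lists of 72 genes. In vehicle mice 3 of the 61 tested were called higher, against 1.29% of all genes, and none lower. In lactate mice 13 of 62 were called higher, against 7.88% of all genes, and none lower. The median log2 fold changes were 0.21 and 0.23, beside 0.0031 and -0.028 over all genes. Of the called relatives, Tubb6 in both comparisons and Anxa1 and Itga5 in lactate mice reached 1 CPM in fewer than 4 sham mice, and over the 55 relatives that reached it in all 4, a choice made after seeing the data, 2 and 10 were called higher. The share of all genes under that rule was not computed. By edgeR none of 60 was called between lactate and vehicle mice, 6 (4 higher and 2 lower) had an unadjusted P under 0.05 with a fold change of at least 1.5, against 6.23% of all genes in either direction, and DESeq2 called 1. The relatives called in vehicle mice were Tubb6, a tubulin of spreading cells (log2 fold change 2.24 ± 0.40, edgeR adjusted P = 0.0135), Tpm4, a tropomyosin of actin filaments (1.49 ± 0.27, edgeR adjusted P = 0.0147), and Ezr, which encodes ezrin and links CD44 and other membrane proteins to actin (1.23 ± 0.24, edgeR adjusted P = 0.0227). The count of 3 was 0 without sham mouse 2 or 4, 1 without sham mouse 1 or 3 and 5 without vehicle mouse 1.

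In lactate mice the same 3 rose (Tubb6 by 2.68, Tpm4 by 1.48 and Ezr by 1.24 on the log2 scale), along with Spp1 by 2.18 (edgeR, adjusted P = 3.53e-07), which encodes the CD44 ligand osteopontin. Spp1 had means of 22.03 ± 3.21, 42.4 ± 17.6 and 97.8 ± 11.8 CPM in sham, vehicle and lactate mice (SD, n = 4 each), and every lactate mouse lay above every vehicle mouse (log2 fold change 1.20 ± 0.29, edgeR adjusted P = 0.434). Itga5, the integrin chain for fibronectin, rose by 1.47, Tagln2, an actin-binding protein, by 1.32, and Anxa1, an annexin of inflammation, by 1.23. S100a11 rose by 0.94. Members of the same families as the 10 genes differed in size. S100b, the S100 protein most used as an astrocyte marker, was at 181.5 ± 43.3, 162.5 ± 19.1 and 178.8 ± 19.8 CPM (SD, n = 4 each) in sham, vehicle and lactate mice with a log2 fold change of 0.0025 in lactate mice (edgeR, adjusted P = 0.994), and Anxa5 was at 0.095 (edgeR, adjusted P = 0.566). Lgals1 was at 0.29 (edgeR, adjusted P = 0.153), Pmp22 and Emp3, relatives of Emp1, at 0.33 and 0.49 (edgeR, adjusted P of 0.154 and 0.246), Emp2 at -0.30 (edgeR, adjusted P = 0.364), and Tnr, a relative of Tnc, at -0.11 (edgeR, adjusted P = 0.731). Among filament genes, Synm, the synemin that joins GFAP and vimentin filaments, rose by 0.65 in lactate mice (edgeR, adjusted P = 0.0152) and was at 0.68 in vehicle mice (edgeR, adjusted P = 0.284).

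**Figure D4:**
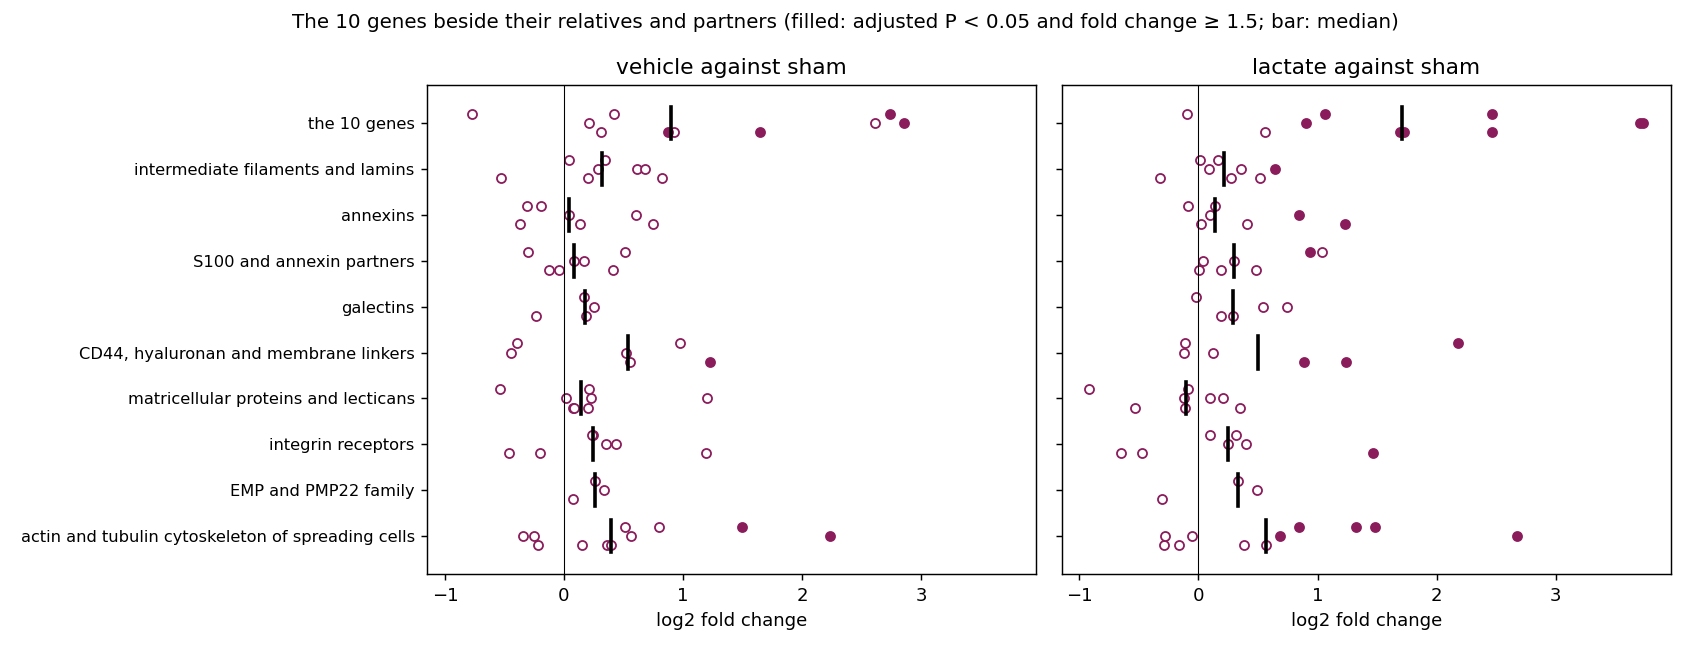
Log2 fold change against sham of the 10 genes (top row) and of the genes tested in each of 9 lists of relatives and partners, in vehicle mice (left) and lactate mice (right). Filled points passed an adjusted P under 0.05 with a fold change of at least 1.5, and black bars are medians. In lactate mice 13 relatives are filled, 5 of them in the actin and tubulin list, and none in either panel is filled below 0.

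Markers of cell types were read beside these changes. The tissue held astrocyte RNA in all mice, and the summed level of 10 astrocyte markers other than Gfap was 7279 to 11304 CPM in sham, 10845 to 12715 in vehicle and 10685 to 12470 in lactate mice. Aldoc, an enzyme of glycolysis, made up 72.9% to 83.2% of this sum in every mouse, and the other 9 markers summed to 1689 to 2214, 1967 to 3235 and 1991 to 2129 CPM. None of the 10 was called in vehicle mice by edgeR, and in lactate mice 1 was called higher (Gjb6, a connexin, log2 fold change 0.91) and 1 lower (Sox9, a transcription factor, -0.73). Of 6 microglial markers, with sums of 219 to 237, 134 to 213 and 211 to 232 CPM, 2 were lower in vehicle mice (Cx3cr1 by -1.21 and P2ry12 by -1.01 on the log2 scale) and 1 in lactate mice (P2ry12, -1.10). The neutrophil list was 0.892 to 2.24 CPM in sham, 8.07 to 66.0 in vehicle and 15.2 to 36.3 in lactate mice. Both neutrophil genes that could be tested, S100a8 and S100a9, rose in both comparisons, while Elane was at 0 in every mouse and Ly6g and Camp at 0 in every sham mouse. With sham means of 0.887 and 0.358 CPM, S100a8 and S100a9 passed the filter only with the help of the ischemic mice, so their calls support nothing. Mpo had 6 reads in sham, 2 in vehicle and 8 in lactate mice. Monocyte and macrophage markers summed to 3.16 to 5.18, 4.99 to 7.38 and 4.19 to 10.3 CPM, with none of the 3 tested called, and fibroblast markers to 14.8 to 19.2, 12.5 to 31.4 and 15.2 to 24.3 CPM, with Col3a1 called higher in lactate mice. Choroid plexus markers summed to 1.22 to 4.48, 3.52 to 1833 and 9.10 to 18.3 CPM, and Ttr was called higher in lactate mice. Ttr was under 1 CPM in sham mice 3 and 4 (0.815 and 0.987 CPM), so it too passed the filter only with the help of the ischemic mice. The 4 globin genes of red blood cells were lower in every ischemic mouse than in any sham mouse, with a median log2 fold change of -0.44 in both comparisons, and Hbb-bt was called lower in lactate mice (-0.61, edgeR adjusted P = 0.0109). Of the 5 oligodendrocyte markers Mog was called lower in lactate mice (-0.60, edgeR adjusted P = 0.0125). No marker of neurons, endothelial, mural or ependymal cells or oligodendrocyte precursors was called in either comparison with sham. Between lactate and vehicle mice no marker was called by edgeR. The median log2 fold change was 0.38 for the 6 microglial markers, 5 of them above 0, and 0.57 for the 4 monocyte and macrophage markers tested, 3 of them above 0, beside -0.029 for all genes. It was 0.28 for fibroblast, 0.26 for oligodendrocyte precursor, 0.097 for ependymal, 0.071 for mural and 0.046 for oligodendrocyte markers. It was -0.013 for red blood cell, -0.052 for neuronal, -0.061 for astrocyte, -0.21 for endothelial and -0.58 for neutrophil markers, and Ttr was at -5.08. Of the microglial genes lower in vehicle than in sham mice, Cx3cr1 was at 0.63 (edgeR, adjusted P = 0.514) and P2ry12 at -0.11 (edgeR, adjusted P = 0.927). The part of these cell types in the changes of the 10 genes was not tested.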

How the data were processed

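Brain RNA of 12 mice was sequenced as nanopore cDNA. The authors kept reads with a mean quality of at least 7 and a length of at least 500 bp, removed ribosomal RNA, aligned with minimap2, made consensus isoforms with pinfish and compared them with the reference annotation by gffcompare. The genome is GRCm38 per the submitters' processing notes, which also name DESeq 1.10.1, whereas the study's methods give another version of DESeq. The authors deposited read counts per gene and CPM, the counts scaled to a column total of 1000000. How reads were assigned to genes is not given in the sources used here. Deposited columns of the authors' own comparisons (fold changes, P values) were not used. 4 lines without a gene were left out.

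Counts were tested with edgeR 4.0.16 (TMM, quasi-likelihood, 2 groups a fit, genes reaching 1 CPM in 4 or more of the 8 mice compared), with Benjamini-Hochberg adjusted P values over all genes tested. Called changes had an adjusted P below 0.05 and reached a 1.5-fold difference. DESeq2 1.42.0, RLE factors, library totals, no filter, 1 fit of 12 mice, Ensembl genes, a replicate block, each mouse left out and other call rules were alternatives. A two-sided exact permutation test used log2(CPM + 1). The fits were tested on simulated data. Positions come from GENCODE and promoters from RefSeq (GRCm38.p6). All 10 genes are named, and among the relatives up to 8 called genes with the largest change per comparison and family members. Genes and lists were chosen with earlier results of these data known.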

Additional observations from a re-analysis of the deposited data

Results flagged for a closer look

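Of 30 sets of 4 mice (10 genes in 3 groups), 1 held a mouse far from the others of its group, where chance gives about 1 in 20. S100a6 in lactate mouse 2 was at 126.1 CPM, against 173.4 to 178.9 CPM in the other lactate mice, a gap of 0.896 of the group's range, above the 95% limit of Dixon's test for 4 values. Without that mouse the log2 fold change of S100a6 was 1.00 against sham and 0.78 against vehicle mice.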

How the results depend on the processing

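The 8 calls in lactate against sham mice, other than Nes, stayed under an adjusted P of 0.05 by edgeR or DESeq2 in all 15 alternative fits. Nes passed in 9 of 15, and a fit of all 12 mice gave it an adjusted P of 0.214. In vehicle against sham mice Gfap passed in 12 of 15, and Vim, Cd44 and Emp1 in 8 of 15. The count of 10 genes called there was 4, with a range of 0 to 5 when 1 mouse was left out and 1 (Gfap) with a replicate block. The replicate numbers pair no samples by the labels, and deviations of same-numbered mice correlated at -0.140 to 0.153. The count in lactate against vehicle mice was 0, 5 at an unadjusted P under 0.05 and 2 by DESeq2. Over all genes, vehicle against sham mice gave 250 calls, 1620 unadjusted, 452 by DESeq2 and 112 to 472 with 1 mouse left out, the most without vehicle mouse 1. Lactate against sham mice gave 1796, 3023 unadjusted and 797 among Ensembl genes only. Lactate against vehicle mice gave 1 call, 1085 unadjusted, 59 by DESeq2, 2 each without the filter, in the fit of all 12 mice and among Ensembl genes, and 0 to 5 with 1 mouse left out. Relatives, to which alternatives were applied after seeing the data, gave 3 calls in vehicle mice (11 unadjusted, 0 to 5 with 1 mouse left out) and 0 between lactate and vehicle mice (6 unadjusted, 1 by DESeq2). Signs turned for Emp1 in lactate against vehicle mice (-0.54 to 0.091 with 1 mouse left out, positive without vehicle mouse 3), Nes in vehicle mice (-0.26 to 0.70, negative without vehicle mouse 1) and Tnc in lactate mice (-0.42 to 0.14, with 0.11 without sham mouse 2, and 0.12 and 0.14 without lactate mouse 1 or 4). The cause was not tested. Cd44, Lgals3, Tnc and Emp1 had as few as 0 or 1 read in single mice, which limits the precision of their fold changes. Library totals in place of TMM factors, added after seeing the data, changed no call of the 10 genes.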
